A study of Mus musculus with 46 samples.

Results

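The response to loss of Tfam was compared gene by gene between mouse pancreatic islets and mouse liver. For each gene the islet effect (Tfam KO minus Tfam control) was set against the liver effect (Tfam KO minus control), and the difference between these effects was tested. Genes entered if they reached a mean of 1 CPM (counts scaled to a fixed library total) in the controls or the knockouts of each tissue, which left 11815 of the 55487 genes listed. The rule set aside 2241 genes at that level in islets only and 1500 in livers only, among them the insulin genes. Kif12 passed with 1.001 CPM in its lower tissue and Cdca7l missed with 0.999 CPM.

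The islets comprised 8 Tfam control libraries (5 female, 3 male) and 6 Tfam KO libraries (4 female, 2 male), all kept in culture overnight after isolation. The livers comprised 6 libraries described as AAVliver_Control and 3 described as AAVliver_TfamKO, from tissue flash frozen before RNA isolation. The labels give the genotype only as control or KO, without the Cre driver, the promoter, the age, the strain or the sex of the liver donors. Tissue, handling and the way the gene was removed therefore changed together, and their parts in any difference between the tissues cannot be told apart. Replicates are labelled as biological, and nothing says that animals were pooled.

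Tfam encodes the protein that packages mitochondrial DNA and starts its transcription, so its loss lowers the RNAs of the respiratory chain subunits that the mitochondrion makes for itself. Cells with failing mitochondria switch on the integrated stress response, in which phosphorylation of eIF2α lowers general translation while raising ATF4. ATF4 and its partners bind C/EBP-ATF elements in genes for amino acid synthesis, amino acid uptake and tRNA charging. Islets are built mostly of insulin-secreting beta cells, and liver mostly of hepatocytes, which take up fuels, make glucose and break down amino acids.

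Total counts ran from 55223041 to 83342809 in the islets and from 41961114 to 56894510 in the livers. Levels are CPM on library totals scaled by TMM within each tissue, and effects are log2 fold changes. A level set beside one of the other tissue therefore rests on separate scalings. Levels of cell type markers, of Xist and of genes that missed the rule are CPM on unscaled totals, as in the rule itself. Calls were made where the p adjusted over the 11815 genes did not exceed 0.05. Libraries varied more in livers than in islets, with a common dispersion of 0.085 against 0.0218 when each tissue was fitted alone. Counts are therefore also given with a separate spread for each tissue, an alternative chosen after seeing the data. The 3 liver knockouts differed in their size of change. Over the 492 genes that changed in livers alone, as defined later, its median from the control mean was 1.26, 1.80 and 0.59 log2 units in replicates 1, 2 and 3. The fit that chose these genes used the same 3 libraries. Their share of counts on mitochondrial DNA gave another order, at 0.158%, 0.551% and 0.203%. The TMM factors of these libraries were 1.24, 1.54 and 1.04, against 0.857 to 0.918 in control livers. Insulin 2 averaged 170771 CPM in control islets and Alb, the albumin gene, 73856 CPM in control livers. In the other tissue Ins2 averaged 0.00655 CPM and Alb 0.809 CPM. In these bulk samples fewer cells of a type and less RNA per cell cannot be told apart.

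Tfam itself (GRCm38 chromosome 10, 71225464 to 71238280, minus strand) was lower in every knockout library of either tissue. It stood between 38.1 and 45.2 CPM (median 39.5) in control islets and between 15.8 and 18.8 CPM (median 17.2) in KO islets. In livers it stood between 54.8 and 65.9 CPM (median 58.3) in controls and at 14.1, 12.2 and 15.9 CPM in the knockouts. The fall was -1.23 (SE 0.06) in islets and -2.07 (SE 0.09) in livers, a difference of 0.84 (SE 0.11, adjusted p 1.87e-05). The libraries of the groups did not overlap in either tissue, and the deeper fall was that of the livers.

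Transcripts of mitochondrial DNA fell in both tissues, and further in livers. They made up 1.204% ± 0.115 (SD, n = 8) of the counts in control islets and 0.231% ± 0.0239 (SD, n = 6) in KO islets, 19.2% of control (two-sided exact permutation test, p = 0.000333). In livers the share went from 3.91% ± 0.472 (SD, n = 6) to 0.304% ± 0.215 (SD, n = 3), 7.78% of control (two-sided exact permutation test, p = 0.0119), and these are the smallest p-values that either design allows. Of the 13 protein-coding genes 7 passed the rule, and all 7 fell in both tissues, with a median effect of -2.66 in islets and -4.61 in livers, and all 7 differences were called. The other 6, such as mt-Co2 and mt-Atp6, were below 1 CPM in all groups of this annotation. The shares above therefore hold next to nothing from these 6 genes, and the cause of their low counts was not tested. mt-Cytb, which encodes cytochrome b of complex III, stood between 2139 and 2822 CPM in control islets and between 325 and 413 CPM in KO islets. In livers it stood between 7289 and 11550.2 CPM in controls and at 174, 532 and 193 CPM in the knockouts. Its effects were -2.76 (SE 0.21) and -4.92 (SE 0.32). mt-Nd6, mt-Nd5 and mt-Co1 gave islet effects of -2.93, -2.73 and -2.66 and liver effects of -4.68, -4.61 and -4.26. The nuclear subunits of the same chain moved little: the 36 genes of complex I had medians of -0.00 and -0.14, and 1 rose and 1 fell in islets while 7 fell in livers, near the 21.6% of all genes that fell there.

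Over all 11815 genes, 946 (8.01%) rose and 669 (5.66%) fell in islets, and 3172 (26.8%) rose and 2550 (21.6%) fell in livers. The effect differed between the tissues in 3840 genes (32.5%), with the islet effect above the liver effect in 1653 (14.0%) and below it in 2187 (18.5%). With a separate spread, 3441 genes were called in islets, 3209 in livers and 2415 for the difference, so that the excess of liver calls did not hold. The median effect over all genes was -0.01 in islets and 0.02 in livers. Genes called in both tissues mostly moved the same way: 443 (3.75%) rose in both and 267 (2.26%) fell in both. Opposite moves, with the difference called as well, were 84 genes (0.711%) higher in KO islets and lower in KO livers, and 56 (0.474%) with the reverse pattern. A gene was named limited to a tissue if it changed there at least 2-fold, the difference was called, and the 95% interval of the other tissue's effect lay within 1.5-fold either way. By this definition 11 genes (0.0931%) rose in islets alone and none fell, while 296 (2.51%) rose and 196 (1.66%) fell in livers alone. With a separate spread 1 gene fell in islets alone, and limma voom with library weights gave no such gene. Leaving out liver KO replicate 2 gave 2136 called differences and 275 genes limited to livers, and leaving out liver KO replicate 3 gave 5689 and 1385. Opposite genes numbered from 83, without male KO islet replicate 2, to 264, without liver KO replicate 3. All of these 83 and 129 of these 264 were among the 140 of the main fit. Without liver KO replicate 2 there were 128 opposite genes, of which only 70 were among the 140.

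**Figure D1:**
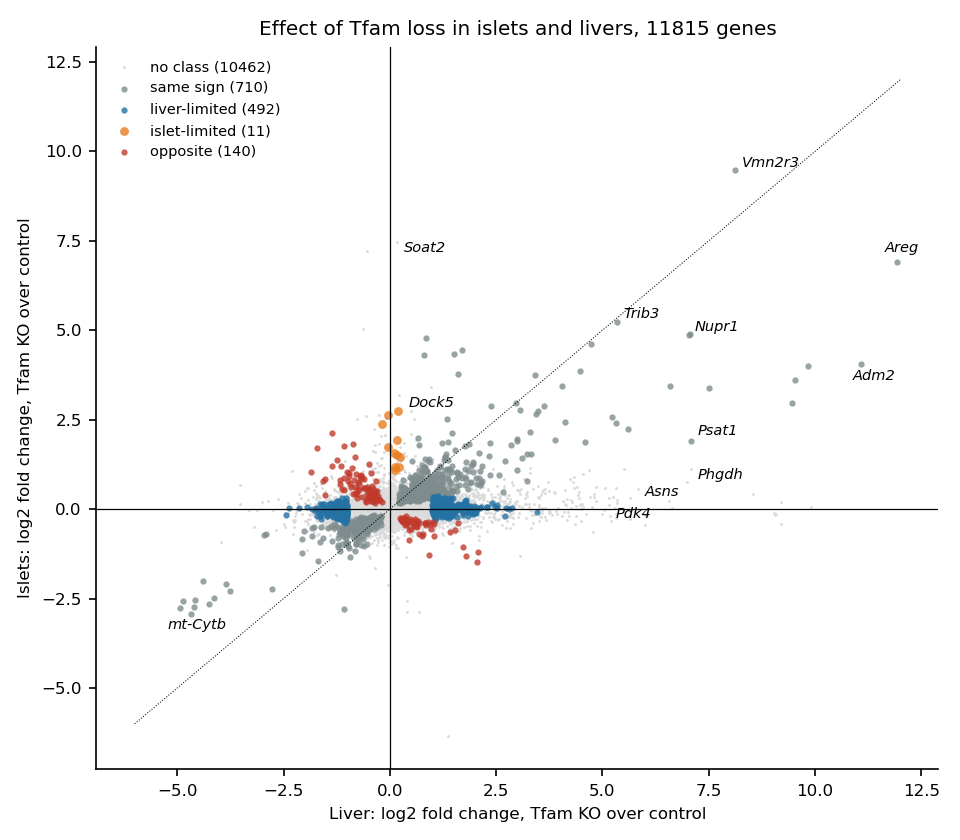
Islet effect against liver effect for the 11815 genes, each as the log2 fold change of Tfam KO over control. Colours mark the 140 genes that moved in opposite directions, the 710 with the same sign, the 11 limited to islets and the 492 limited to livers; the dotted line marks equal effects. Trib3 lies on that line, Psat1, Phgdh and Asns lie far to its right, and Soat2 lies near the islet axis.

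Among the named genes that rose in islets and fell in livers were several of fuel handling. Opposite genes ranked by size were named only if their groups did not overlap in either tissue. That held for 19 of the 84 genes of this direction and 15 of the 56 of the other. Pfkfb3 (chromosome 2, 11471433 to 11554077, minus strand) makes the fructose 2,6-bisphosphate that drives glycolysis. It stood between 6.08 and 11.3 CPM (median 9.41) in control islets and between 16.8 and 25.04 CPM (median 21.7) in KO islets. In livers it stood between 15.8 and 45.9 CPM (median 29.3) in controls and at 15.1, 9.16 and 11.2 CPM in the knockouts. Every KO library was above the controls in islets and below them in livers. The effects were 1.21 (SE 0.19) and -1.37 (SE 0.27), and their difference was 2.58 (SE 0.34, adjusted p 2.97e-05).

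Gcgr (chromosome 11, 120530699 to 120538986, plus strand) encodes the glucagon receptor, through which glucagon raises glucose output in liver and insulin release in islets. It stood between 13.8 and 28.1 CPM (median 19.5) in control islets and between 30.3 and 39.4 CPM (median 35.2) in KO islets. In livers it stood between 280.1 and 354 CPM (median 333) in controls and at 113, 40.98 and 183 CPM in the knockouts. The groups did not overlap in either tissue, and even after the fall Gcgr was higher in each KO liver than in any KO islet library. Its effects were 0.84 (SE 0.20) and -1.53 (SE 0.27), a difference of 2.38 (SE 0.34, adjusted p 7.42e-05).

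Pdk1, a kinase that shuts off pyruvate dehydrogenase, rose by 1.16 (SE 0.20) in islets and fell by 0.89 (SE 0.27) in livers. The liver call rests on replicates 1 and 2, at 52.4 and 36.0 CPM, since replicate 3 at 126 CPM lay within the controls (106 to 158). Suclg2, a subunit of succinyl-CoA ligase in the citric acid cycle, moved by 0.63 (SE 0.10) and -0.55 (SE 0.14), and KO liver replicate 3, at 286 CPM, also lay within the controls. With a separate spread neither liver change was called (adjusted p 0.0774 for Pdk1 and 0.0607 for Suclg2), while both differences were. Mid1ip1, an activator of acetyl-CoA carboxylase, the first step of fatty acid synthesis, had about the same control level in the tissues, with a median of 59.4 CPM in islets and 60.1 CPM in livers. It reached 94.5 to 122 CPM in KO islets and fell to 38.3, 22.8 and 34.7 CPM in KO livers, a difference of 1.76 (SE 0.23, adjusted p 2.77e-05).

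Several genes far more abundant in liver rose from a low level in islets. Cat, the catalase that removes hydrogen peroxide, went from 6.05 to 7.64 CPM in control islets to 8.15 to 14.2 CPM in KO islets. In livers it went from 2195 to 3714 CPM in controls to 1376, 697 and 1659.8 CPM in the knockouts. Aldh1a1, which makes retinoic acid, rose from at most 1.08 CPM to between 2.20 and 5.99 CPM in islets, an effect of 2.13 (SE 0.27). In livers it stood between 781 and 2469.9 CPM in controls and at 534, 476 and 656 CPM in the knockouts, an effect of -1.36 (SE 0.34). Slc38a3, a glutamine transporter, moved by 1.75 (SE 0.32) in islets, where the groups overlapped, and by -1.09 (SE 0.39) in livers. The islet levels of Cat, Aldh1a1 and Slc38a3 stayed below 15 CPM. Alb, the defining hepatocyte gene, averaged 0.809 CPM in control and 0.974 CPM in KO islets, and apart from Tat (27.3 and 22.9 CPM) and Ttr the other hepatocyte markers averaged at most 2.38 CPM there. The sum of the 12 markers in islets, 1451 to 3180 CPM in controls and 1840 to 2727 CPM in knockouts, is nearly all Ttr, which is also an alpha cell marker and averaged 2056 and 2179 CPM, so it does not measure hepatocyte RNA. Acinar markers summed to 1259 to 10881 CPM in control and 2085 to 24626 CPM in KO islets, and with their level as a covariate each named difference kept its sign and its call.

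Of 27 genes of endoplasmic reticulum chaperones and the unfolded protein response, 2 moved in opposite directions and 7 moved the same way in both tissues. The median effects of the 27 were -0.29 in islets, where 5 rose and 7 fell, and -0.44 in livers, where 4 rose and 11 fell. Among all genes 8.01% rose and 5.66% fell in islets, and 26.8% rose and 21.6% fell in livers. Tmbim6, a guard of the endoplasmic reticulum against stress, stood between 452 and 602 CPM in control and between 642 and 705 CPM in KO islets. Its liver levels were 1719 to 2085 CPM in controls and 1125, 584 and 1443 CPM in the knockouts, and the groups were apart in both tissues. It was in the opposite class in 27 of 39 alternative settings. Sel1l and Edem1, the 2 opposite genes of that list and parts of the pathway that clears misfolded proteins from the endoplasmic reticulum, rose by 0.79 (SE 0.09) and 0.59 (SE 0.12) in islets. They fell by 0.31 (SE 0.11) and 0.60 (SE 0.16) in livers, where KO and control libraries overlapped and the calls were lost with a separate spread (adjusted p 0.142 and 0.0751). Smarcd2, a subunit of the SWI/SNF chromatin remodelling complex, moved by 0.55 and -0.72, and Zbtb7b, a transcription factor, by 0.50 and -0.49. Naa80, which acetylates actin, and Anks4b moved by 0.56 and 0.46 in islets and by -1.12 and -0.82 in livers. Gm11789, at 1.70 and -1.71, is annotated antisense to Gcgr (chromosome 11, 120526855 to 120531784, minus strand) and overlaps its start. Whether the counting used strand is not given in the sources used here, so reads of Gm11789 and Gcgr may not be told apart where they overlap. Hsd17b7, an enzyme of cholesterol synthesis, moved by 0.93 and -0.69 with overlap in livers.

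Of regulators named after their values were seen, Ppara, the receptor that switches on fatty acid oxidation, moved by 1.21 (SE 0.32) in islets and -1.14 (SE 0.36) in livers. It stayed at or below 2.37 CPM in islets, and the groups overlapped in both tissues. Shmt2, the mitochondrial serine hydroxymethyltransferase, moved by 0.56 (SE 0.12) and -0.48 (SE 0.16). Neither liver change was called with a separate spread (adjusted p 0.0650 and 0.0790).

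The 56 genes lower in KO islets and higher in KO livers had median sizes of change of 0.38 in islets and 0.56 in livers, against 0.55 and 0.61 for the 84 of the other direction. Tm4sf4 (chromosome 3, 57425314 to 57441677, plus strand) encodes a tetraspan membrane protein of endocrine and biliary epithelium. It stood between 396 and 686 CPM (median 539.5) in control and between 299 and 367 CPM (median 324) in KO islets. Its liver levels were 100.6 to 164 CPM (median 121) in controls and 199, 391 and 189.5 CPM in the knockouts. The effects were -0.75 (SE 0.17) and 1.05 (SE 0.21), a difference of -1.80 (SE 0.27, adjusted p 1.17e-04). The 8 duct and cholangiocyte markers summed to 29.6 to 78.3 CPM in control livers and 34.2 to 198 CPM in KO livers, and their part in the rise was not tested.

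Btg2, an antiproliferative target of p53, was 112 to 136 CPM in control and 72.1 to 83.8 CPM in KO islets. In livers it was 6.90 to 20.8 CPM in controls and 20.0, 56.7 and 28.6 CPM in the knockouts, so that replicate 1 lay just inside the control range. Its effects were -0.63 (SE 0.19) and 1.42 (SE 0.24). Srrm4 and Tia1 act on RNA. Srrm4, a splicing factor of neural and endocrine microexons, went from 8.97 to 11.9 CPM in controls to 5.87 to 8.75 CPM in KO islets, and from 1.74 to 3.12 CPM to 4.48, 6.78 and 7.65 CPM in livers. Tia1, which nucleates stress granules, moved by -0.39 (SE 0.13) and 0.84 (SE 0.17), and the groups of both genes were apart in both tissues. Tia1, with an adjusted p of 0.0459 in islets by edgeR, was in the opposite class in 19 of 39 alternative settings, against 36 for Srrm4 and 29 for Btg2. Myadm, a membrane protein, moved by -0.38 and 0.82. The transport proteins of cilia Ift22 and Ift80 moved by -0.39 and -0.33 in islets and by 0.39 and 0.33 in livers, and F11r, a tight junction protein, by -0.33 and 0.31. Eid1, Ttc39a and Coq8b, a kinase-like protein of coenzyme Q synthesis, fell by 0.41, 0.38 and 0.37 in islets and rose by 1.03, 1.59 and 1.02 in livers. With a separate spread these last 3 had islet intervals within 1.5-fold and were counted as limited to livers, while the liver changes of Ift22, Ift80 and F11r were not called (adjusted p 0.109, 0.128 and 0.0677).

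**Figure D2:**
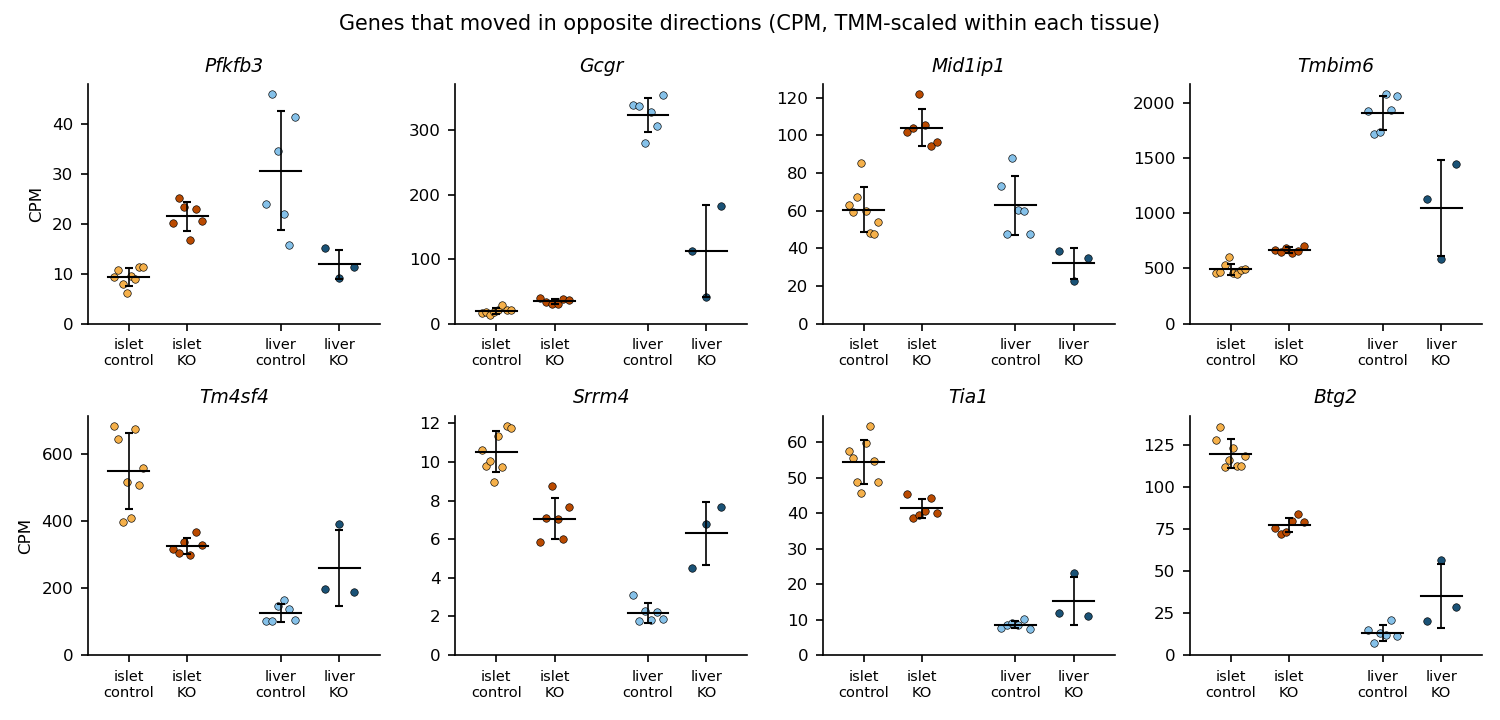
CPM of 8 genes in each library (points) of control and KO islets and control and KO livers, with the mean (line) and SD (bars). In the upper row KO islets lie above and KO livers below their controls; in the lower row the pattern is reversed, with Btg2 in livers as the 1 panel where a KO library touches the control range.

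With a separate spread 73 genes were higher in islets and lower in livers, of which 40 were among the 84 above, and 82 had the reverse pattern, of which 23 were among the 56. Each KO islet library moved at least 139 of the 140 genes in the fitted direction from the control mean. The KO livers did so for 139, 140 and 133 genes. These libraries were used in the fit that chose the genes, so the counts describe evenness between libraries and support nothing. Control levels were uneven between the tissues: of the 84 genes, 62 (73.8%) were more abundant in control livers, and of the 56 only 3 (5.36%) were, against 33.0% of all genes tested. The same control libraries enter these levels and the effects.

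Change limited to islets was rare and upward. Dock5 (chromosome 14, 67752135 to 67933442, minus strand), an activator of the GTPase Rac, stood between 6.42 and 11.9 CPM (median 9.45) in control and between 50.3 and 70.0 CPM (median 65.8) in KO islets. Its liver levels were 25.99 to 34.4 CPM (median 30.1) in controls and 38.3, 35.5 and 28.4 CPM in the knockouts. The islet groups were far apart and the liver groups overlapped. The effects were 2.74 (SE 0.11) and 0.19 (SE 0.14), with a 95% interval of -0.11 to 0.48 in livers, and the difference was 2.56 (SE 0.19, adjusted p 1.80e-08).

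Stard5 (chromosome 7, 83631959 to 83653127, plus strand), a carrier of cholesterol within cells, went from 18.1 to 32.3 CPM in control to 110.1 to 147 CPM in KO islets. In livers it was 139 to 224 CPM in controls and 170.0, 129 and 184 CPM in the knockouts. Its islet effect was 2.38 (SE 0.11), and its liver effect of -0.18 had a 95% interval of -0.47 to 0.11. Hfe (chromosome 13, 23702034 to 23710854, minus strand), whose product governs iron uptake, went from 19.7 to 34.5 CPM to 94.3 to 108 CPM in islets. It was 45.4 to 54.1 CPM in control livers and 55.3, 60.5 and 49.2 CPM in KO livers, effects of 1.92 (SE 0.11) and 0.18 (SE 0.15).

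Rasgef1b, an exchange factor for small GTPases, rose by 2.63 (SE 0.14), St3gal3, a sialyltransferase of the Golgi, by 1.57 (SE 0.09), and the zinc finger gene Zfp189 by 1.52 (SE 0.11). Their liver effects were -0.05, 0.09 and 0.16. The other 5 of the 11, named after their values were seen, were Pir, Pparg, Vdac3, Nrf1 and Got1. Pparg, the receptor that drives fat storage, rose by 1.46 (SE 0.12), and Vdac3, a channel of the outer mitochondrial membrane, by 1.19 (SE 0.08). Nrf1, a transcription factor for nuclear genes of mitochondrial upkeep, rose by 1.17 (SE 0.08), from 20.3 to 29.8 CPM in control to 53.5 to 64.3 CPM in KO islets. In livers Nrf1 was 13.2 to 16.8 CPM in controls and 19.1, 13.8 and 15.0 CPM in the knockouts. Got1, an aspartate aminotransferase of the malate-aspartate shuttle, rose by 1.10 (SE 0.12), and Pir, a nuclear iron-binding protein, by 1.73 (SE 0.18). Control levels were higher in livers than in islets for 10 of the 11. With a separate spread 12 genes rose in islets alone, of which 9 were among these 11, and Pparg and Got1 were the ones that left the class.

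Some genes with an islet rise and no called liver change fell outside the definition because the liver interval was too wide. Soat2, which esterifies cholesterol for export, had at most 2 counts in any control islet library and 2 counts in all of them together, and averaged 1.03 CPM in KO islets. No fold is given for so few counts. In livers Soat2 had an effect of 0.18 (SE 0.21). Angptl6, a secreted angiopoietin-like protein, rose by 3.19 (SE 0.18) in islets and had a liver effect of 0.21 (SE 0.22). Cebpb, a partner of ATF4, rose from 9.48 to 15.6 CPM to 31.5 to 42.1 CPM in islets. Its liver levels were 78.8 to 150.1 CPM in controls and 112, 56.3 and 117 CPM in the knockouts. The effects of Cebpb were 1.62 (SE 0.16) and -0.38 (SE 0.22), and their difference was called (adjusted p 5.88e-05).

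By the definition more genes were limited to livers than to islets, but the count depends on precision. A narrow interval is harder to reach in livers, with 3 knockouts. The larger liver dispersion does not add to this in the main fit, where the tissues share the spread of each gene. With a separate spread 13 genes were limited to islets and 690 to livers. With male islets only the order turned round, at 22 genes limited to islets and 12 to livers. Ddit4 (chromosome 10, 59949669 to 59951834, minus strand), a stress-induced brake on mTORC1, stood between 25.3 and 58.2 CPM (median 37.9) in control and between 30.5 and 51.7 CPM (median 39.9) in KO islets. Its liver levels were 6.18 to 12.9 CPM (median 11.8) in controls and 99.3, 56.3 and 75.1 CPM in the knockouts. The islet groups overlapped throughout, and each KO liver was above every control. Its liver effect was 2.87 (SE 0.26), its islet effect of 0.02 had a 95% interval of -0.40 to 0.44, and the difference was -2.85 (SE 0.33, adjusted p 6.75e-06). Ctsl, the lysosomal protease cathepsin L, went from 491 to 650.2 CPM in control livers to 3676, 4339 and 1663 CPM in KO livers, an effect of 2.53 (SE 0.18). Its islet levels of 192 to 263 CPM in controls and 211 to 262 CPM in knockouts overlapped.

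Serpina7, the carrier of thyroid hormone in plasma, rose by 2.53 (SE 0.33) in livers. The upper bound of its islet interval, 0.58, lay at the limit of the definition, and it was in the class in 11 of 39 alternative settings. Rab11fip4, a trafficking adaptor, rose by 2.47 (SE 0.27), Itga6, a laminin receptor subunit, by 2.3995 (SE 0.21) and Cpne8, a calcium-dependent membrane-binding protein, by 2.28 (SE 0.19). Their islet effects ran from 0.03 to 0.18. Srxn1, a target of NRF2 that repairs oxidised peroxiredoxins, rose by 2.03 (SE 0.27), though KO liver replicate 3, at 35.8 CPM, lay within the controls (32.0 to 36.5 CPM). The bile salt and drug exporter Abcc4, the carbonyl reductase Cbr3 and the calcium-binding S100a11 rose by 4.38, 4.37 and 2.81 in livers, but their islet intervals were too wide for the definition. The rise of Cbr3 was mostly that of 1 library, with 5.49, 62.6 and 1.83 CPM in the KO livers against 0.596 to 1.86 CPM in controls.

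Downward, Hcn3, a pacemaker channel, fell by 2.37 (SE 0.34) and Hes6, a transcription cofactor, by 2.13 (SE 0.23) in livers. Glo1 (chromosome 17, 30584936 to 30626871, minus strand), the glyoxalase that clears methylglyoxal, went from 183 to 305 CPM in controls to 59.2, 32.9 and 139 CPM in KO livers. In islets it was 40.3 to 50.1 CPM in controls and 43.3 to 46.6 CPM in knockouts, an effect of 0.01 with a 95% interval of -0.39 to 0.41. Ifi27, an interferon-stimulated gene, the natriuretic peptide receptor gene Npr2 and the Wnt receptor gene Fzd8 fell by 1.75, 1.72 and 1.69. Prox1, a transcription factor of hepatocyte and endocrine development, fell by 1.03 (SE 0.18) in livers and had an islet effect of -0.01 (SE 0.13), with overlap in both tissues. The naming rule took only genes whose groups were apart in livers, as those of 207 of the 296 higher and 170 of the 196 lower genes were. All 12 genes that it gave for this class overlapped in islets and stayed in the class with a separate spread. The small islet changes of Itga6 and Npr2 were then called. With that spread the class held 498 higher and 192 lower genes, of which 247 and 146 were shared.

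**Figure D3:**
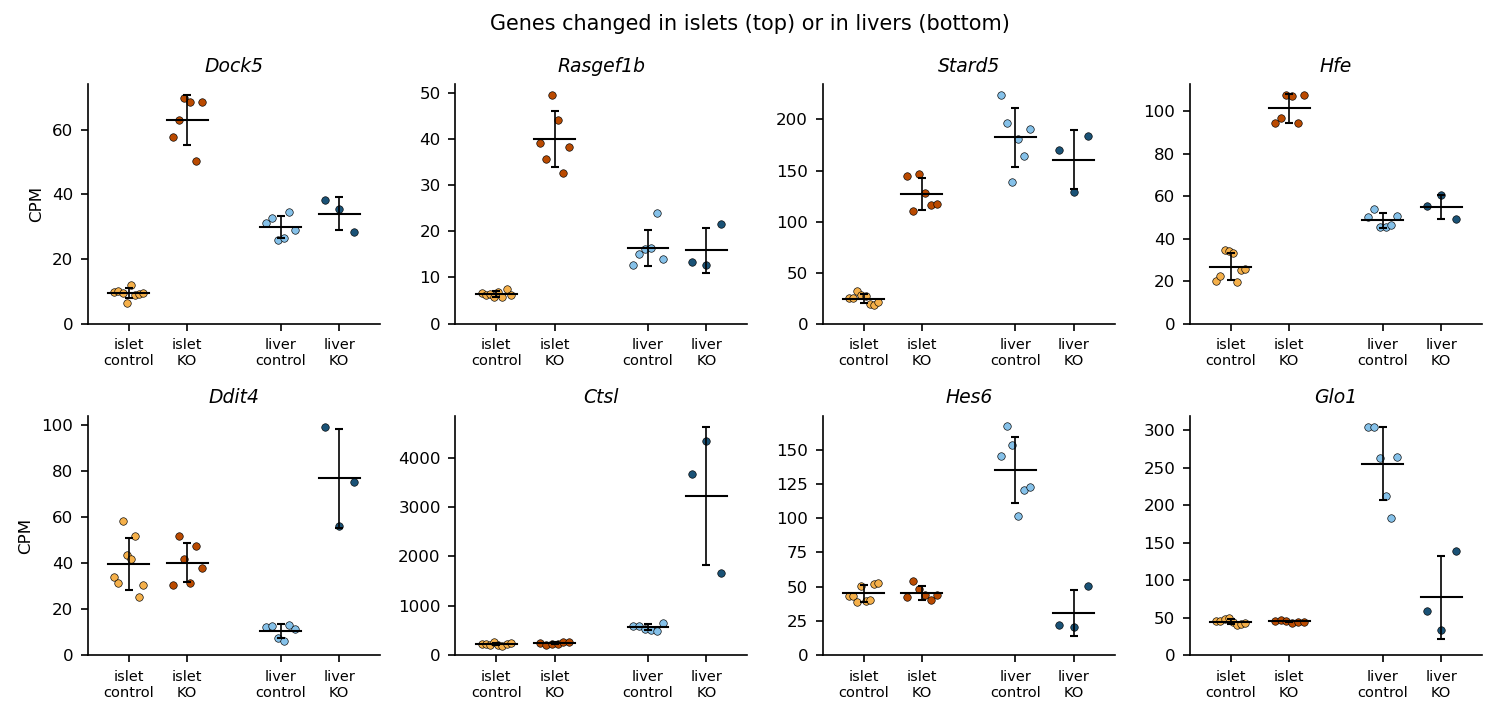
CPM in each library for 4 genes limited to islets (upper row) and 4 limited to livers (lower row), with means and SD. In the upper row the 6 KO islets stand apart from the 8 controls while the liver groups overlap; in the lower row the 3 KO livers stand apart from the 6 controls while the islet groups overlap.

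Several transcription factors of the integrated stress response and their feedback gene Trib3 rose in both tissues. Cebpb, described above, rose in islets without a called liver change. Trib3 (chromosome 2, 152337422 to 152344032, minus strand), a pseudokinase that feeds back on ATF4, stood between 1.56 and 11.2 CPM (median 4.39) in control and between 147 and 199 CPM (median 180.1) in KO islets. Control livers ranged from 3.21 to 7.33 CPM (median 4.13), and KO livers were at 213, 272 and 72.9 CPM. Its effects were 5.24 (SE 0.34) and 5.33 (SE 0.41), and the difference of -0.10 had a 95% interval of -1.15 to 0.96. Atf4 rose by 0.72 (SE 0.14) and 0.87 (SE 0.18), Atf5 by 1.12 and 1.35, Ddit3, which encodes the proapoptotic factor CHOP, by 2.78 and 3.06, and Atf3 by 3.86 and 4.48. The 95% intervals of their differences were -0.63 to 0.33 for Atf4, -0.98 to 0.51 for Atf5, -1.21 to 0.63 for Ddit3 and -1.75 to 0.52 for Atf3. No difference was called for these genes, and the intervals allow one of more than 1.5-fold in each. Gdf15, a circulating stress hormone, rose by 2.89 (SE 0.38) and 3.63 (SE 0.44), without a called difference. Cebpg, another partner of ATF4, rose by 0.94 and 0.61, the latter not called with a separate spread (adjusted p 0.0689). Of the 20 stress transcription factors that passed, 10 rose and 1 fell in islets and 12 rose in livers. Among all genes 8.01% rose and 5.66% fell in islets and 26.8% rose in livers. In 6 of the 20, among them Cebpb, the difference was called, near the 32.5% of all genes.

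Many genes downstream differed between the tissues. Of 48 integrated stress response targets that passed, 29 rose in islets, and 35 rose and 3 fell in livers, where 8.01% and 26.8% of all genes rose. The median effect was 0.96 in islets and 1.48 in livers, against -0.01 and 0.02 over all genes. The islet effect was below the liver effect in 19 and above it in 5, against 18.5% and 14.0% of all genes. Asns (chromosome 6, 7675169 to 7693254, minus strand), asparagine synthetase, stood between 76.3 and 149 CPM (median 98.9) in control and between 133 and 170.2 CPM (median 154) in KO islets, with overlap and an effect of 0.56 (SE 0.43, adjusted p 0.444). Control livers ranged from 0.268 to 2.19 CPM (median 0.683), and KO livers were at 47.7, 117 and 3.12 CPM, an effect of 5.85 (SE 0.63). The difference was -5.29 (SE 0.76, adjusted p 8.26e-05). When each tissue had its own spread, the islet rise of Asns was also called (adjusted p 0.0115).

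Phgdh and Psat1, the first enzymes of serine synthesis, and Mthfd2, a mitochondrial folate enzyme, also had the larger effect in livers. Psat1 rose from 8.17 to 15.1 CPM to 31.4 to 51.5 CPM in islets, and from 0.474 to 2.44 CPM to 117, 336 and 17.8 CPM in livers. Its effects were 1.91 (SE 0.38) and 7.08 (SE 0.57). Phgdh had effects of 1.14 (SE 0.42, adjusted p 0.0743) and 7.08 (SE 0.65), and Mthfd2 of 0.98 (SE 0.34, adjusted p 0.0602) and 4.54 (SE 0.48). Under a separate spread both islet changes were called (adjusted p 3.18e-04 for Phgdh and 6.26e-04 for Mthfd2), and both differences were. The arginine and lysine transporter gene Slc7a1 rose by 3.19 (SE 0.40) in livers and had an islet effect of 0.85 (SE 0.29, adjusted p 0.0564). The tRNA synthetase gene Sars rose by 0.71 and 2.06, and Gars by 2.01 in livers with an islet effect of 0.20 (SE 0.21, called only with a separate spread). Of the 19 cytosolic tRNA synthetase genes, 5 rose in islets and 13 in livers, against 8.01% and 26.8% of all genes. The liver effect was the larger in all 8 called differences.

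In each of the 19 targets with the larger liver effect, the control level was higher in islets than in livers. The same held for 1974 of the 2187 genes with an islet effect below the liver effect, and the same control libraries enter both values. The 5 targets with the islet effect above the liver effect, which were Cth, Slc6a9, Shmt2, Herpud1 and Soat2, all had the higher control level in livers. Nupr1, a chromatin protein induced by stress, rose in both tissues, by 4.87 (SE 0.37) in islets and 7.03 (SE 0.49) in livers. It started from a median of 11.6 CPM in control islets and 1.28 CPM in control livers and reached 221 to 499 CPM in KO islets and 336, 192 and 62.2 CPM in KO livers. Adm2, a secreted peptide of the calcitonin family, had 0 counts in all 6 control livers and averaged 4.43 CPM in KO livers, at least 65.3-fold higher than a floor of 3 counts per library. In islets Adm2 rose by 4.05 (SE 0.48). Areg, a ligand of the EGF receptor, rose in both tissues from at most 0.292 CPM in control islets and 0.0835 CPM in control livers, to values of 1.304 to 44.99 CPM in KO islets and 189.7, 166 and 16.8 CPM in KO livers. Vmn2r3 rose in both tissues, to 5.23 to 15.6 CPM in KO islets and 276, 77.3 and 18.9 CPM in KO livers. It belongs to a family of similar receptor genes, which makes it uncertain which gene its reads came from.

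**Figure D4:**
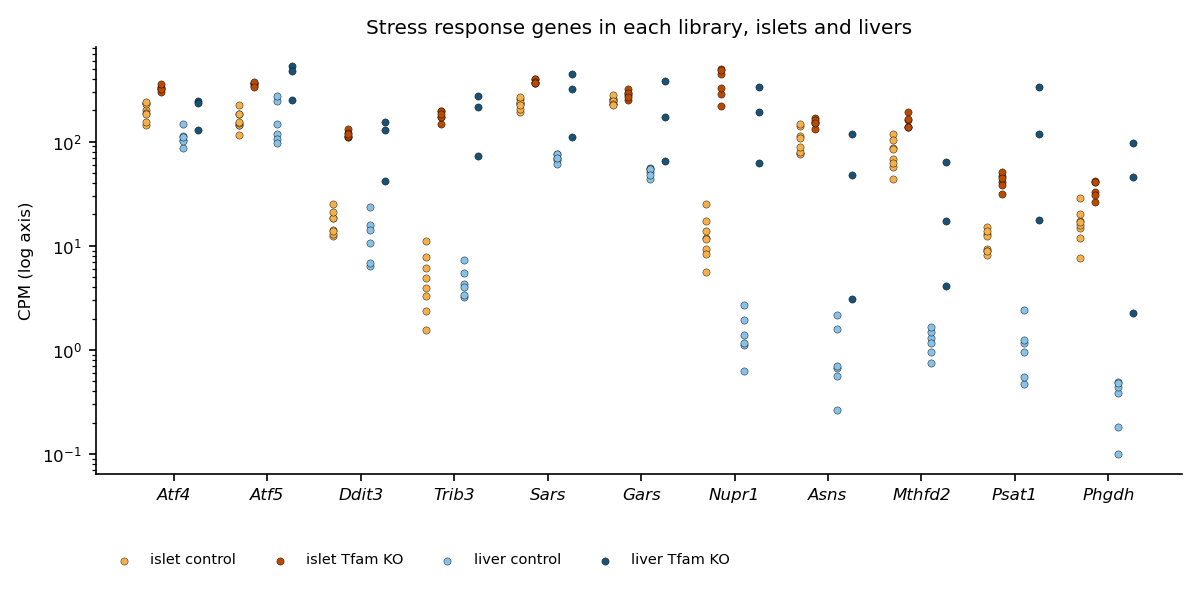
CPM (log axis) of 11 stress response genes in each library of the 4 groups. Trib3 and Ddit3 overlap between the control groups of the tissues, whereas Nupr1, Asns, Mthfd2, Psat1 and Phgdh start lower in control livers and climb further.

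The C/EBP-ATF element TGATGNAAN was searched on both strands in the RefSeq promoters (GRCm38.p6, 250 bases before to 50 after the start, 300 in all), where N is any base. Of 93 genes chosen for description, 73 had a promoter, and 7 of these held the element. It was in the promoters of 17 of 39 integrated stress response targets (43.6%), of 1 of 116 opposite genes (0.862%) and of 244 of 9310 genes tested (2.62%), against 4.50% of 27025 RefSeq genes. The list of targets was drawn up from knowledge of such genes, so its share is no independent support. The 4 promoters that follow are shown because their genes answered differently while each holds 1 match, in capitals: Trib3 rose in both tissues without a called difference, Asns and Gars had the larger effect in livers, and Got1 rose in islets alone. They are the strand of the gene, from chr2:152344011-152344310 (minus), chr6:7693160-7693459 (minus), chr6:55037751-55038050 (plus) and chr19:43524556-43524855 (minus).
Trib3: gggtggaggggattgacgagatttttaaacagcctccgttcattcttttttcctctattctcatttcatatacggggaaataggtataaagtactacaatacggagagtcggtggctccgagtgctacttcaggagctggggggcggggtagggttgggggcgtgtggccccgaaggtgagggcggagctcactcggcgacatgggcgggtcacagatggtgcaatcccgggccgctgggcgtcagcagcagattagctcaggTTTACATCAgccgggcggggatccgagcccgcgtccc
Asns: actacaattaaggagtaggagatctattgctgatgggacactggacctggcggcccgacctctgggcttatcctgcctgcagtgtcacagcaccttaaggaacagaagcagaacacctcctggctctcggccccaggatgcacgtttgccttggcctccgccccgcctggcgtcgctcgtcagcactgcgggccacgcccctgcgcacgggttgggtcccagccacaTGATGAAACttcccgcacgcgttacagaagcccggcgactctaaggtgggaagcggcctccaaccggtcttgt
Gars: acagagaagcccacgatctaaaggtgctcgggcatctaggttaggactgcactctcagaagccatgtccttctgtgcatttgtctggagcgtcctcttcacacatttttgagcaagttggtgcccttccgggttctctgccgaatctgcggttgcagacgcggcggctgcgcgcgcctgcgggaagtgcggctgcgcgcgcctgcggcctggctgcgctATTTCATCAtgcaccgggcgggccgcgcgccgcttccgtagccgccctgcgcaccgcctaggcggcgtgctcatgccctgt
Got1: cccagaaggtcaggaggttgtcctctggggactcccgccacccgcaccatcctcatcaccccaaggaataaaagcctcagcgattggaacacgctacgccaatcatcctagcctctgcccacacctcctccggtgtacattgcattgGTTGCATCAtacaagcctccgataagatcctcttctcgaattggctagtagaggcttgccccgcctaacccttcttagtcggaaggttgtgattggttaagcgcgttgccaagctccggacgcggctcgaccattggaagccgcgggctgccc
The matches start 13 bases after the start of Trib3 and 23, 31 and 103 bases before those of Asns, Gars and Got1. A match is a description of the letters and not a site shown to be bound.

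The counts that follow stand against 8.01% of all genes that rose in islets and 26.8% in livers. The 50 cytosolic ribosomal protein genes had a median effect of 0.34 in islets, where 25 rose, and 0.97 in livers, where 49 rose, and the liver effect was the larger in all 40 called differences. Rpl35 went from 50.96 to 59.5 CPM in control to 172, 200.3 and 92.7 CPM in KO livers. Of 28 p53 targets, 10 rose and 1 fell in islets and 20 rose and 1 fell in livers, with medians of 0.51 and 1.33 and 14 called differences, all with the larger effect in livers. Cdkn1a, the cell cycle inhibitor p21, rose by 1.88 (SE 0.39) in islets and 4.58 (SE 0.52) in livers. Of 34 cell cycle genes, 3 rose in islets, near the share of all genes, and 19 in livers. Of 25 epithelial progenitor and biliary genes, 2 rose in islets, and 13 rose and 1 fell in livers.

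Among all genes tested, 21.6% fell and 26.8% rose in livers, and 5.66% fell and 8.01% rose in islets. Of 35 genes of fatty acid oxidation and PPAR alpha targets, 20 fell and 5 rose in livers, while 1 fell and 3 rose in islets, the latter near the share of all genes. The medians were -0.43 and 0.07, and the islet effect was above the liver effect in 15 of 17 called differences. The other 2, Pdk4 and Acot2, rose in livers by 5.15 (SE 0.70) and 4.43 (SE 0.46). Pdk4, which spares glucose by shutting off pyruvate dehydrogenase, reached 36.2, 616 and 21.8 CPM in KO livers. Of 32 genes of amino acid catabolism and the urea cycle, 20 fell and 3 rose in livers, and 2 fell and 4 rose in islets. Tdo2, which breaks down tryptophan, fell from 1454 to 2321 CPM in control to 668, 279 and 794 CPM in KO livers. Of 24 transcription factors and sensors that islets and liver share, 16 fell and 1 rose in livers, and 4 fell and 5 rose in islets. Mlxipl, the glucose-responsive factor ChREBP, fell by 1.16 (SE 0.28) in islets and 1.18 (SE 0.37) in livers, and the glucose transporter Slc2a2 by 1.04 (SE 0.21) and 0.98 (SE 0.27). Mlxipl and Slc2a2 were named after their values were seen.

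Cell type markers moved in the same libraries. The 12 hepatocyte markers summed to 106147 to 149551 CPM in control and 42763 to 122758 CPM in KO livers. The 10 endothelial markers summed to 271 to 328 CPM and 352 to 520 CPM, the 12 fibroblast and stellate cell markers to 304 to 405 CPM and 440.1 to 497 CPM, and the 11 macrophage markers to 546 to 1103 CPM and 579 to 1229 CPM. In islets the 10 beta cell markers summed to 177458 to 251680 CPM in controls and 118919 to 152572 CPM in knockouts, and the 6 alpha cell markers to 23469 to 88640 CPM and 42830 to 58260 CPM. All these sums are on unscaled totals. The TMM factors were 1.24, 1.54 and 1.04 in KO livers against 0.857 to 0.918 in control livers. Unscaled levels of KO livers therefore read higher against controls than scaled ones. In the scaled fit the median liver effect was -0.04 for the 9 endothelial markers that passed and 0.20 for the 10 fibroblast and stellate ones. It was -0.38 for the 8 macrophage markers and -1.35 for the 4 hepatocyte ones that passed. These were Apoa1, Apoa2, Tat and Ttr, which passed because they reach 1 CPM in islets too. On unscaled means Tat (1251 to 2165 CPM) and Ahsg (7036 to 9412 CPM) were higher in KO than in control livers. The other hepatocyte markers were lower there. The part of marker changes in the results was not tested.

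**Figure D5:**
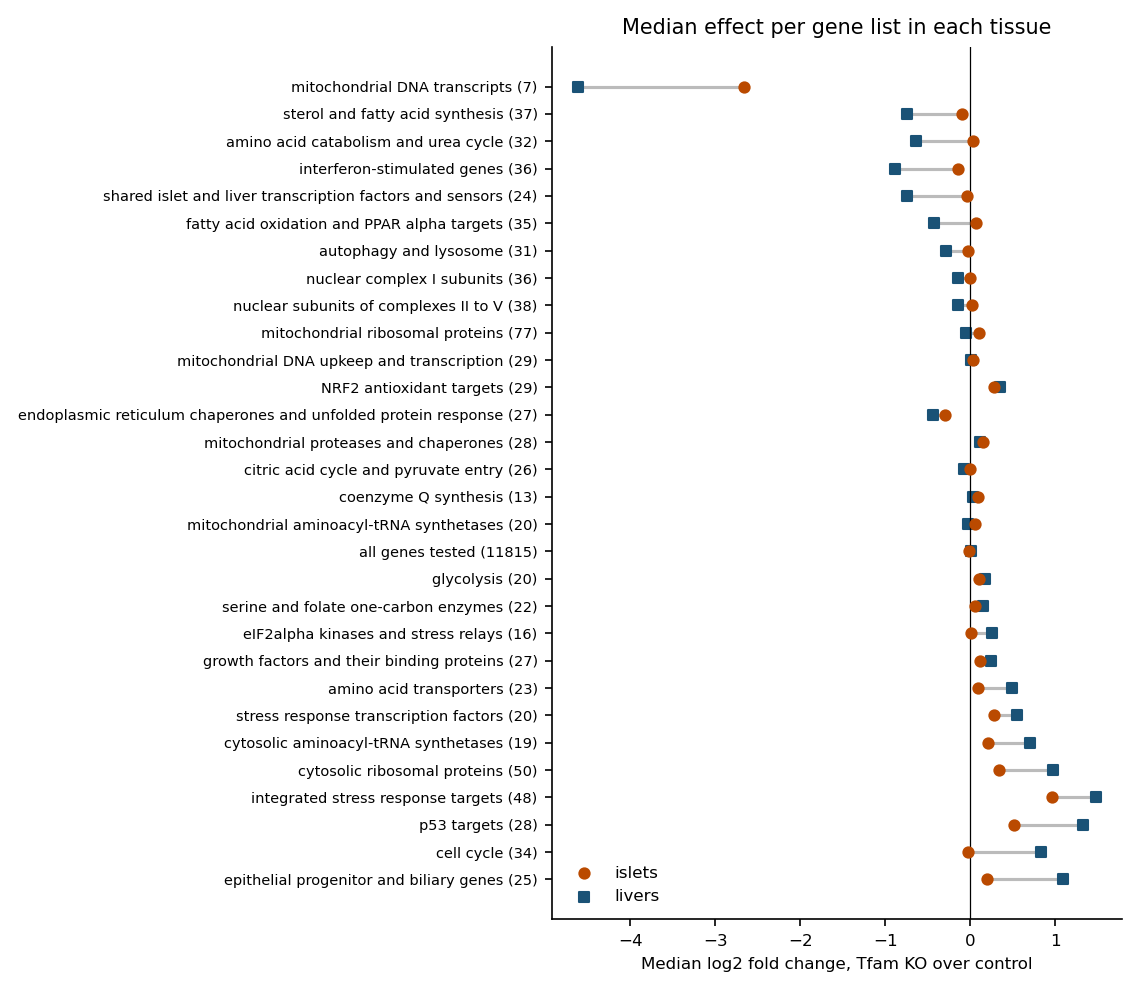
Median log2 fold change of Tfam KO over control for each gene list in islets (circles) and livers (squares), with the number of members that passed the rule in parentheses. Lists are ordered by the median difference: mitochondrial DNA transcripts lie at the top with -2.66 and -4.61, all genes tested lie near 0, and the epithelial progenitor list lies at the bottom with 0.20 and 1.09.

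The islet effect was pooled over the sexes, with a term for sex. No gene had a called interaction of genotype and sex in the edgeR fit, with 267 of 11815 at an unadjusted p of 0.05 or less. With 2 male KO libraries, a missing call does not show equal effects in the sexes. Of 155 genes selected for possible naming, 130 had the same sign in females and males. Among livers, 3 of 6 controls and 2 of 3 knockouts had Xist above 100 CPM, which the labels do not explain. With the Xist level as a liver covariate each named difference kept its sign and its call. Over all alternatives tried, none of the 84 called differences among these 93 genes changed sign, and 48 remained called throughout. The other 36 were not called when the islets were the male ones only, which hold 3 control and 2 KO libraries. Of these, Aldoa, Areg, Nupr1, Sars and Slc7a1 were also not called with a replicate block, and Cdkn1a with both libraries of outlying scaling left out.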

How the data were processed

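The deposited tables hold raw counts per gene, 1 table a library, made by the authors. Per the submitters' processing notes, FastQC, featureCounts, MultiQC, DESeq2, STAR 2.6.1b and RSEM 1.3.1 were used with build GRCm38, with no roles given. Of 46 libraries, 23 were compared. Counts were fitted in R 4.3.3 with the edgeR 4.0.16 quasi-likelihood test, with TMM factors within each tissue, 1 mean per tissue and genotype and a term for islet sex, and p-values were adjusted by Benjamini-Hochberg over 11815 genes. Standard errors come from the F statistic. Alternatives used limma 3.58.1 and DESeq2 1.42.0, each tissue alone, either sex, a replicate block, other definitions and leaving out each library. The tests were checked on simulated data. The p-values measure the spread between libraries labelled as biological replicates. In the main fit each gene has 1 spread shared by both tissues, although livers varied more than islets.

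Members, lists and tests were chosen with earlier results of these data known. By rule, the genes selected for naming were Tfam and up to 10 opposite genes a direction. Up to 6 limited genes a tissue and direction and 4 same-sign genes a direction were added. Genes of these classes were ranked by size of change with at least 5 CPM and no overlap between groups. Selected as well were up to 3 members of each list by adjusted p of the difference, and all mitokine and stress factor genes that passed. Not all selected genes are described here, and several of the stress factors are not. Genes outside this selection are marked as chosen after their values were seen. A few results are not reported here. Positions are from GENCODE M21, which held 11811 of the genes.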

Additional observations from a re-analysis of the deposited data

Results flagged for a closer look

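The islet and liver effects of 84 described genes differed by the test of the difference itself (edgeR, adjusted p of 0.05 or less). Most of these genes were chosen for a called difference or for its adjusted p, so their number follows largely from the choice and shows nothing of itself. The islet effect was above the liver effect, in log2 units, for Soat2 (7.30), Aldh1a1 (3.49), Gm11789 (3.41), Angptl6 (2.98), Slc38a3 (2.84), Rasgef1b (2.67), Pfkfb3 (2.58), Stard5 (2.56), Dock5 (2.56), Hcn3 (2.405), Gcgr (2.38) and Ppara (2.36). Next in size came mt-Nd4 (2.30), mt-Cytb (2.16), Hes6 (2.15), Tdo2 (2.12), mt-Nd2 (2.05), Pdk1 (2.05), Cebpb (2.0002), Cat (1.90), mt-Nd5 (1.89), Pir (1.78), Mid1ip1 (1.76), mt-Nd6 (1.75) and Hfe (1.74). Smaller differences of this direction were those of Glo1 (1.74), Ifi27 (1.71), Naa80 (1.68), Fzd8 (1.65), Hsd17b7 (1.62), mt-Co1 (1.60), Npr2 (1.51), St3gal3 (1.48), Zfp189 (1.36), Tmbim6 (1.297), Anks4b (1.28), Smarcd2 (1.27) and Pparg (1.22). The smallest called ones were those of Edem1 (1.19), Suclg2 (1.18), Sel1l (1.10), Nrf1 (1.04), Shmt2 (1.04), Prox1 (1.01), Zbtb7b (0.99), Got1 (0.99), Vdac3 (0.98), and Tfam (0.84).

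The islet effect was below the liver effect for Adm2 (-7.03), Phgdh (-5.95), Asns (-5.29), Psat1 (-5.17), Pdk4 (-5.05), Areg (-5.04), Cbr3 (-4.56), Abcc4 (-4.30), Acot2 (-4.04) and Mthfd2 (-3.56). Further differences of this direction were those of S100a11 (-3.04), Ddit4 (-2.85), Cdkn1a (-2.70), Serpina7 (-2.50), Rab11fip4 (-2.41), Ctsl (-2.41), Slc7a1 (-2.34), Cpne8 (-2.23), Itga6 (-2.22) and Nupr1 (-2.16). They were followed by Srrm4 (-2.10), Srxn1 (-2.07), Btg2 (-2.05), Ttc39a (-1.97), Gars (-1.80), Tm4sf4 (-1.80), Aldoa (-1.74), Eid1 (-1.44), Coq8b (-1.39) and Sars (-1.35). The last of them were Tia1 (-1.23), Myadm (-1.20), Rpl35 (-1.17), Ift22 (-0.78), Ift80 (-0.65) and F11r (-0.64). The values of Adm2, Areg and Soat2 rest on control groups with next to no counts and depend on how the fit treats them.

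Among 281 groups of described genes, 14 held 1 library far from the others, where chance gives about 1 in 20 groups. Liver control replicate 5 was the high one for Sel1l (197.8 CPM), Edem1 (289 CPM), Rasgef1b (23.9 CPM), Cdkn1a (9.21 CPM) and Abcc4 (12.6 CPM). Female control islet replicate 4 was the high one for Tfam (45.2 CPM), Eid1 (212 CPM), Angptl6 (6.56 CPM) and Vmn2r3 (0.0839 CPM). Liver control replicate 6 stood apart for Hcn3 (49.9 CPM), Vmn2r3 (2.19 CPM) and, as the low one, Zbtb7b (80.7 CPM). Female control islet replicate 3 held the only Soat2 counts of the control islets (0.0383 CPM), and male control islet replicate 1 was low for Acot2 (5.43 CPM).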

How the results depend on the processing

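With islets of 1 sex, the female ones gave 400 genes called in islets, 2209 differences, 25 opposite, 193 same-sign and 215 liver-limited genes, and the male ones 226, 395, 15, 89 and 12, with 22 islet-limited genes. A replicate block gave 829 genes called in islets, 1696 differences, 42 opposite, 315 same-sign and 318 liver-limited genes. The labels do not say whether equal replicate numbers pair the samples. Same-numbered libraries correlated from -0.26 to 0.44 in islets and from -0.05 to 0.20 in livers. Libraries of unlike number were not compared, so these values cannot settle the pairing. Limma voom gave 5142 genes called in islets, 484 opposite, 1489 same-sign and 1001 liver-limited genes. A separate spread gave 3441 genes called in islets, 3209 in livers and 2415 differences, and each tissue fitted alone gave 3441, 3209, 216 opposite and 814 liver-limited genes. Leaving out both libraries with outlying scaling (liver KO replicate 2 and female control islet replicate 4) gave 2554 genes called in islets, 2500 differences, 22 islet-limited and 276 liver-limited genes. An interval within 2-fold gave 46 islet-limited and 1104 liver-limited genes, and any size of change 216 and 2280. The causes were not tested.

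Leaving out 1 library gave 1098 (male KO islet replicate 2) to 2274 (liver KO replicate 2) genes called in islets and 3595 (liver KO replicate 2) to 6859 (liver KO replicate 3) in livers. It gave 2136 to 5689 differences, 83 to 264 opposite, 499 to 1011 same-sign, 8 to 21 islet-limited and 275 to 1385 liver-limited genes. The mitochondrial share was 18.8% to 19.9% of control in islets and 4.62% to 9.64% in livers.

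Ppargc1a, named after its values were seen, rose 1.57-fold in islets and 1.48-fold in livers, without a called difference. Uncalled differences changed sign for Atf4, Atf3, Ddit3, Trib3, Cebpg, Vmn2r3 and Ppargc1a. With male islets only, those of Atf4, Atf3 and Trib3 were 0.029, 0.16 and 0.75. With voom, those of Trib3, Cebpg and Vmn2r3 were 0.11, -0.068 and -0.53. Without liver KO replicate 1, those of Atf4, Ddit3, Trib3 and Ppargc1a were 0.012, 0.052, 0.012 and -0.024, and without replicate 2 those of Trib3 and Ppargc1a were 0.28 and -0.085. Without liver KO replicate 3, those of Atf4, Ddit3, Trib3 and Ppargc1a were -0.40, -0.68, -0.49 and 0.41, and without replicate 1 that of Vmn2r3 was 2.70. Trib3 was at 0.095 without female control islet replicate 1, 0.012 without female KO islet replicate 2 and 0.34 without both outlying libraries, where Ppargc1a was at -0.076. Ppargc1a was at -0.066 with the replicate block, and Vmn2r3 at -0.58 without liver control replicate 6.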
